A study of Homo sapiens with 12 samples.

Results

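Imprinted genes are expressed wholly or mainly from 1 parental copy, in some cases only at certain promoters. The 10 described here are KCNQ1OT1, PLAGL1, PEG10, GNAS, H19, IGF2, MEST, MEG3, PEG3 and SNRPN, 7 of them protein-coding and 3 long non-coding RNA genes. They were chosen by name, and all 10 had a window among the 58381 windows around transcription start sites (TSSs) of the series. The window taken for a gene lay on its strand, with its centre nearest the gene's RefSeq 5′ end and within 1 kb of it. All deposited peaks from 5 kb upstream to 5 kb downstream of the gene were added.

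The study profiled G-quadruplexes, folded DNA structures built from stacked sets of guanines, in HEK293 under a single condition. HEK293 is a human line derived long ago from embryonic kidney. Chromatin was precipitated with BG4, an antibody fragment that binds these structures. The 12 samples are 9 ChIP libraries, 3 technical ones for each of the biological replicates BioRep1, BioRep2 and BioRep3, and 3 inputs that were not analysed here. What was measured is the number of ChIP reads per 400 bp window, besides 1 peak list per biological replicate. The lists differ in size, with 7931 peaks in BioRep1, 11665 in BioRep2 and 13049 in BioRep3. A peak in all 3 lists is therefore limited by the shortest, that of BioRep1. Reads in windows ran from 372030 to 846114 per library, and CPM is the read count scaled to that total, 1 read being worth 1.18 to 2.69 CPM. These data carry no information on which parental copy gave a read.

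Which parental copy of an imprinted gene is active is set by DNA methylation laid down in the egg or the sperm at differentially methylated regions. Several of these regions are themselves promoters, guanine- and CpG-rich, methylated on the maternal copy and active on the paternal one; those of PLAGL1, MEST, PEG3, SNRPN and KCNQ1OT1 are textbook cases. At H19 and IGF2, and at MEG3, the region that was methylated in sperm lies between genes. Loss of these marks can cause growth disorders such as Beckwith-Wiedemann and Silver-Russell syndromes.

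RefSeq promoters of build GRCh38.p14, running from 250 bases before to 50 after a listed start, were given for 6 of the 10 genes, 24 promoters in all. KCNQ1OT1, PEG10, IGF2 and PEG3 had no entry. Below are 5 of them, 5′ to 3′ on the gene's strand, with runs of 3 or more G or of 3 or more C in capitals, since a C run is a G run on the other strand. The inner promoter of PLAGL1 (chr6:144008210-144008509, minus strand) is shown because it was the only one of the 24 that a peak overlapped. The outer promoter of PLAGL1 (chr6:144064550-144064849, minus strand) ends short of peaks just downstream. The GNAS promoter (chr20:58888930-58889229, plus strand) had the highest GC content of the 24. The MEST promoter (chr7:130491808-130492107, plus strand) had the most G runs, and that of SNRPN at the start of SNURF (chr15:24954737-24955036, plus strand) lies at the window with the lowest mean CPM of those at the 10 genes.
PLAGL1 inner promoter: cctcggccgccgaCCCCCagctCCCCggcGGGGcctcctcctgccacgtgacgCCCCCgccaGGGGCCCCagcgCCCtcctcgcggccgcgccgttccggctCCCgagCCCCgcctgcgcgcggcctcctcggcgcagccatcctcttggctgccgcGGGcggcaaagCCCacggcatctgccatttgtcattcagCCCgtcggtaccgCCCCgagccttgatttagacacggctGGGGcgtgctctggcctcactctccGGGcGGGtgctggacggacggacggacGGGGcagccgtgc
PLAGL1 outer promoter: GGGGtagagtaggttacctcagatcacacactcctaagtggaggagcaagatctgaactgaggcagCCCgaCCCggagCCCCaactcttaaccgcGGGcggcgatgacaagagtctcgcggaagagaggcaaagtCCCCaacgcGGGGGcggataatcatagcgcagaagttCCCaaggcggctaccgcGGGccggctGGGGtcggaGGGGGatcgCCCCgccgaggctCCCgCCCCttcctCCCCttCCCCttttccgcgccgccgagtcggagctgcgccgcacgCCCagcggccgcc
GNAS promoter: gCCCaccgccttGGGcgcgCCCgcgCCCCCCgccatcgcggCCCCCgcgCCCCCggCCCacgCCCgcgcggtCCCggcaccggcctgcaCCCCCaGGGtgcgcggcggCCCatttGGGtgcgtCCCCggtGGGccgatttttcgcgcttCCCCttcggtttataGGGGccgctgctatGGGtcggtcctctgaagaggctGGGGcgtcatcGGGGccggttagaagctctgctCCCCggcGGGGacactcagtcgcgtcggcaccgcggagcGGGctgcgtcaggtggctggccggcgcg
MEST promoter: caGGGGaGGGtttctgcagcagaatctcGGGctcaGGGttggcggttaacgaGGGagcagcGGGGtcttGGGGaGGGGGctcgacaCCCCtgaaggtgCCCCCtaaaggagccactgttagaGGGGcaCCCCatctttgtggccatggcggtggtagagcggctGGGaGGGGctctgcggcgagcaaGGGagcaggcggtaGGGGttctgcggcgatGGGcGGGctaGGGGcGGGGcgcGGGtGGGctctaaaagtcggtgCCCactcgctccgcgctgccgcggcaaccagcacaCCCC
SNRPN promoter at SNURF: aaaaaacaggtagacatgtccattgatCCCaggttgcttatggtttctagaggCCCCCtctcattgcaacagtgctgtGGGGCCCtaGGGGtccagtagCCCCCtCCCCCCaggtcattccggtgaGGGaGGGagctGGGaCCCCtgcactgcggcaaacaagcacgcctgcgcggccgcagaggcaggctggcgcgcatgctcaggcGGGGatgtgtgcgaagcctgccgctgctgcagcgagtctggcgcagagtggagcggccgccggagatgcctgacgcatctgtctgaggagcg

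A match to 4 runs of GGG or longer, separated by 1 to 7 bases of any kind and searched on both strands, was present in 6 of the 24 promoters (25.0%), against 25.0% of all 35116 promoters in the table. The 6 were 3 of GNAS, 2 overlapping ones of MEST and the outer promoter of PLAGL1. The 24 are not separate units: those of MEG3 start within 24 bp of one another, and GNAS, MEST and PLAGL1 have several each. The shares and medians over them therefore count some sequence more than 1 time. The inner promoter of PLAGL1 had no match, although it had 75.7% GC, 39 CpG dinucleotides and 2 peaks. The MEST promoter printed above had a match, 19 G runs and 68.7% GC, and the nearest peak in any list was 50822 bp away. Median GC content was 59.3% over the 24 promoters and 58.7% over all promoters. Over all promoters, 39.6% of the 5943 with a peak in all 3 lists had a match, against 20.1% of the 24809 without a peak. A match describes these letters only and not a folded structure.

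Of the imprinted genes, 7 of 10 had no BG4 peak within 5 kb. The other 3 had one in at least 1 list, as did 41% of protein-coding and non-coding genes in the same length range. The windows of GNAS, H19, IGF2, MEG3 and MEST had 0.756 to 1.26 times the median of peak-free windows of their class. KCNQ1OT1, PLAGL1 and PEG10 lay above that range, at 4.46, 1.996 and 1.66 times it, and PEG3 and SNRPN below, at 0.385 and 0.228 times. Only KCNQ1OT1 had a peak in its window, and it had one in all 3 lists. This is 1 of 10 genes, where 19.9% of the 23300 windows named for protein-coding or long non-coding RNA genes had a peak in all 3 lists (8.94% of windows of any kind). By class it was 1 of the 3 non-coding members, where the share over such genes was 9.32%, and none of the 7 protein-coding members, where it was 24%. The count stayed at 1 of 10 for peaks in at least 2 lists (28.6% of the 23300 windows) and in any single list (34.7%). These windows lie at each gene's outermost start, so inner promoters do not enter the count. At the inner start of PLAGL1, the window named for HYMAI had 39.6 CPM and a peak in 2 lists. At the inner start of SNRPN, the window named for SNURF had 1.50 CPM and no peak. The genes were chosen by name with results of these data known, and the count carries no test.

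The median over the 10 windows was 9.66 CPM, against 16.95 CPM over the 23300 windows named for protein-coding or non-coding genes, and 3 of the 10 lay above the latter. In order of mean CPM the genes were KCNQ1OT1, PLAGL1, PEG10, GNAS, H19, IGF2, MEST, MEG3, PEG3 and SNRPN. Neighbours in this order had overlapping ranges over the 3 biological replicates in 6 of 9 cases. The ranges did not overlap between KCNQ1OT1 and PLAGL1, between PEG10 and GNAS, or between PEG3 and SNRPN.

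**Figure D1:**
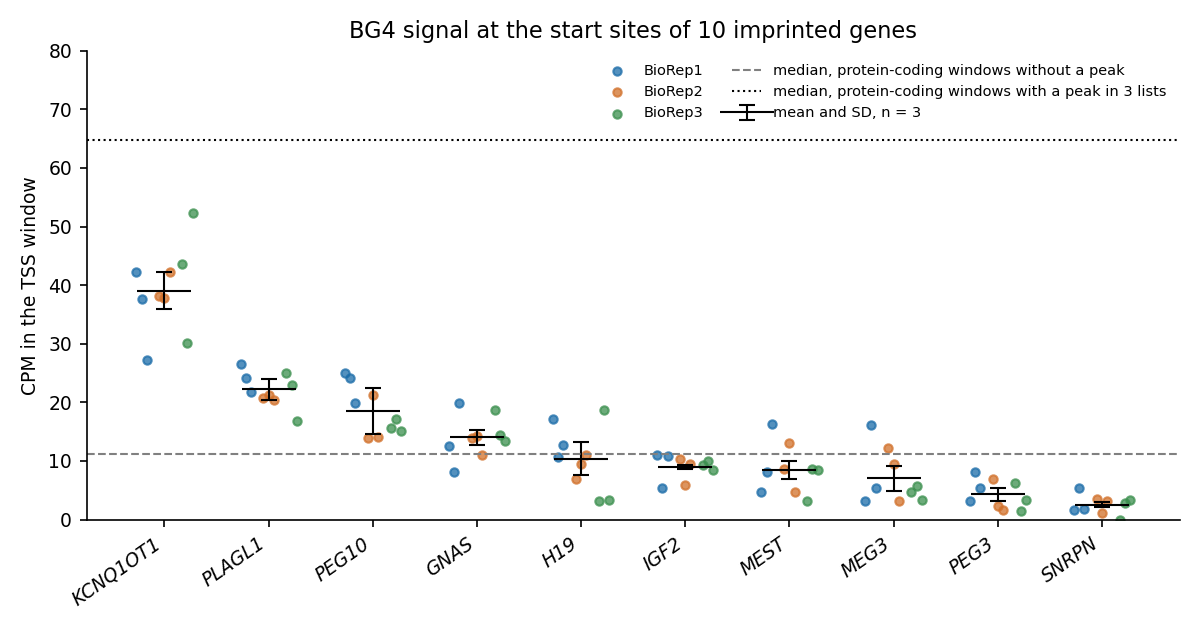
CPM in the TSS window of each imprinted gene, 1 point per library coloured by biological replicate, with the mean and SD over 3 biological replicates; the dashed and dotted lines are medians over protein-coding genes, of peak-free windows (11.1 CPM) and of windows with a peak in all 3 lists (64.7 CPM). KCNQ1OT1 stands above the other 9 genes at 39.0 CPM, and the means from H19 to SNRPN lie below the dashed line. H19 and MEG3 are non-coding, and the peak-free median of that class, not drawn, is 8.75 CPM. H19 was above it (1.18 times) and MEG3 below (0.802 times).

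KCNQ1OT1 is the long antisense RNA that starts inside KCNQ1 on the paternal copy and silences neighbouring genes, among them CDKN1C. Its window (chromosome 11, 2699795 to 2700194, hg38, ENSG00000269821.1) had 42.3, 37.6 and 27.2 CPM in the libraries of BioRep1, 38.2, 37.8 and 42.3 CPM in those of BioRep2, and 43.6, 30.2 and 52.2 CPM in those of BioRep3. The 3 biological replicates overlapped, with no replicate apart, and the mean was 39.0 ± 3.17 CPM (SD, n = 3). The 9 libraries together held 217 reads there (95% exact Poisson interval 189 to 248, counting error only). The level was 4.46 times the median of 8.75 CPM over non-coding RNA windows without a peak.

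The peaks of KCNQ1OT1 lay just upstream of its start and overlapped one another. They covered positions 2700110 to 2700185 in BioRep1, 2700099 to 2700239 in BioRep2 and 2700055 to 2700247 in BioRep3. Their midpoints stood at -153, -175 and -157 bp from the 5′ end, so none reached into the transcribed part, and the 2 longer ones ran past the edge of the window. Among non-coding RNA windows with a peak in all 3 lists this one was weak, since only 3.69% of the 597 had a lower mean, and their median was 61.0 CPM. The 4 other windows inside the gene had 7.09 to 10.1 CPM, and the window at the start of KCNQ1 had 12.8 ± 2.65 CPM (n = 3). KCNQ1OT1 was above KCNQ1 in 9 of 9 libraries.

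The 3 named windows closest to KCNQ1OT1 over the 9 libraries, by Euclidean distance of log2 CPM with 1 added, were those of ABCA15P (40.2 ± 3.31 CPM, distance 0.436), LINC01359 (36.2 ± 2.41 CPM, distance 0.472) and BEX4 (38.2 ± 3.55 CPM, distance 0.489). The first pair had a peak in 1 list each and BEX4 in none. Windows of this level thus carried different numbers of peaks.

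PLAGL1 encodes a zinc finger factor that restrains growth and is linked to transient neonatal diabetes. It is read from an outer promoter used on both copies and from an inner, imprinted one shared with the non-coding RNA gene HYMAI. The outer window (chromosome 6, 144064400 to 144064799, ENSG00000118495.18) had 26.6, 24.2 and 21.7 CPM in BioRep1, 20.8, 21.3 and 20.4 CPM in BioRep2, and 24.9, 23.0 and 16.8 CPM in BioRep3, a mean of 22.2 ± 1.76 CPM (SD, n = 3). All libraries of BioRep1 lay above all of BioRep2, narrowly (21.7 against 21.3 CPM at the closest), while those of BioRep3 overlapped both. The edgeR test given below did not call this window different between replicates (adjusted p 0.956). No list had a peak in this window.

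The window at the inner start, named for HYMAI (144008063 to 144008462), lay 56337 bp further along the gene. It had 42.3, 37.6 and 34.4 CPM in BioRep1, 43.4, 44.9 and 31.3 CPM in BioRep2, and 45.2, 41.6 and 35.4 CPM in BioRep3. Its mean of 39.6 ± 1.34 CPM (n = 3) was 1.78 times that of the outer window, and it was higher in 9 of 9 libraries. The lowest library of the inner window, at 31.3 CPM, stood above the highest of the outer one, at 26.6 CPM. A further window 57372 bp along the gene, on the other strand, had 18.3 ± 1.45 CPM.

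PLAGL1 held 5 of the 10 peaks found at the imprinted genes. At the inner start BioRep2 had a peak from 144008225 to 144008311 and BioRep3 one from 144008246 to 144008337, both across the listed start at 144008259. BioRep1, whose list is the shortest of the 3, had none there, although its mean in that window was 38.1 CPM against 39.9 and 40.7 CPM. Near the outer start all 3 lists had a peak, with midpoints 417, 436 and 586 bp downstream of it and outside the window. Those of BioRep1 (144064126 to 144064238) and BioRep2 (144064107 to 144064219) overlapped, and that of BioRep3 (144063970 to 144064056) ended before them, so PLAGL1 had no peak that all 3 lists shared.

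GNAS encodes the stimulatory G protein alpha subunit and, from other promoters, the proteins NESP55 and XLas, with different parental copies used at different promoters. The window at its outermost start (chromosome 20, 58839519 to 58839918, ENSG00000087460.24) had 8.06 to 19.9 CPM over the 9 libraries and a mean of 14.0 ± 1.33 CPM (SD, n = 3). This was 1.26 times the median of peak-free protein-coding windows. The 7 other windows from there to 37233 bp along the gene and just upstream of it ranged from 7.50 to 15.2 CPM, the highest being that of the antisense RNA gene GNAS-AS1 (15.2 ± 2.65 CPM).

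The signal of GNAS was highest in its last window, 49061 bp along the gene on the opposite strand (58888610 to 58889009), with 20.9 ± 5.05 CPM and no peak. Beyond it BioRep2 had a peak of 23 bp (58891262 to 58891284) and BioRep3 one of 67 bp (58890873 to 58890939), which did not overlap each other. BioRep1 had none in the gene, and its nearest lay 69.8 kb past the gene's end. The nearest listed GNAS start, that of the promoter printed above, was 1693 bp from the BioRep3 peak and 2082 bp from the BioRep2 peak. The list need not hold every GNAS start, so a closer start is not excluded. No window covered either peak, so no read count of this dataset bears on them here.

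**Figure D2:**
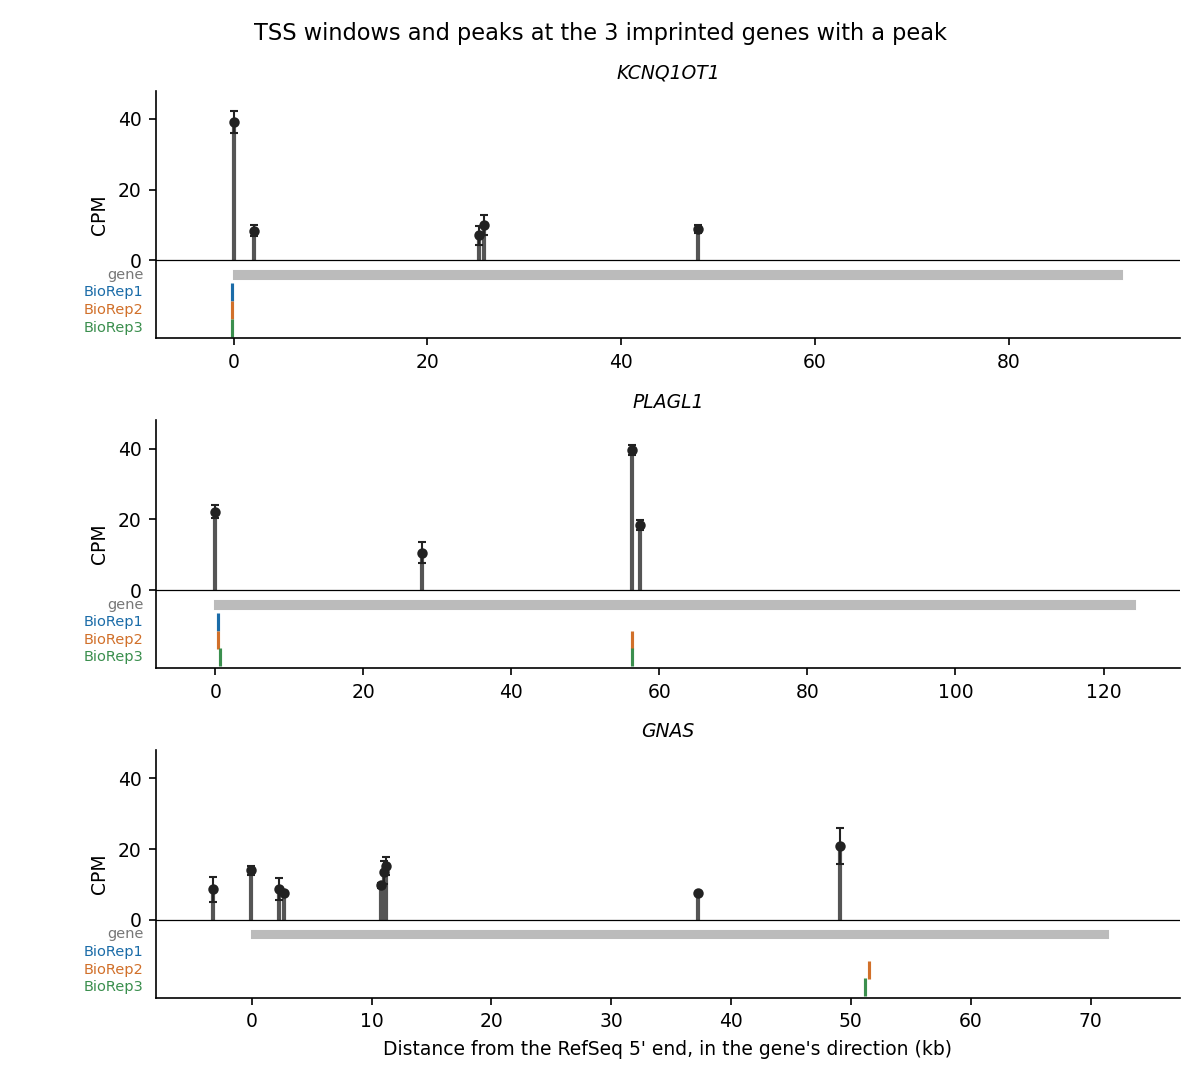
Mean CPM with SD over 3 biological replicates (stems) for every TSS window along KCNQ1OT1, PLAGL1 and GNAS, by distance from the RefSeq 5′ end in kb in the gene's direction, with the gene as a grey bar and each list's peak midpoints as ticks. At KCNQ1OT1 the 3 lists align at the start, at PLAGL1 they cluster near the outer start and, in BioRep2 and BioRep3, at the inner window of 39.6 CPM, and at GNAS only BioRep2 and BioRep3 have a tick, at different places.

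Within 5 kb of the gene, 1 of 10 members had a peak shared by all 3 lists and 3 of 10 had a peak in any list. Among the 24988 protein-coding and non-coding genes as long as these (6091 to 155087 bp) the shares were 24.9% and 41%, and among all 38353 such genes 22.4% and 37.6%. Leaving out the list of BioRep1 or that of BioRep3 raised the shared count to 2 of 10, by adding PLAGL1, and with no flanks it was 0, since the peaks of KCNQ1OT1 lie outside its body. The other 7 genes had no peak, and the nearest one outside the 5 kb lay 44.9 kb from MEST and 47.8 kb from H19. The next were 146 kb from PEG10, 182 kb from IGF2, 212 kb from MEG3 and 271 kb from PEG3. At SNRPN it was 1784 kb away, near TUBGCP5. At the 24 listed promoters, 1 had a peak in 2 lists and none had one in 3, where over all listed promoters 24.3% had a peak in at least 2 lists 16.9% in 3 and 29.4% in any.

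PEG10 is a retrotransposon-derived gene of the placenta that shares a divergent promoter with SGCE. Its window (chromosome 7, 94656126 to 94656525) had 25.0, 24.2 and 19.9 CPM in BioRep1, 13.9, 21.3 and 14.1 CPM in BioRep2, and 15.6, 17.2 and 15.2 CPM in BioRep3. BioRep1 lay highest with a mean of 23.1 CPM against 16.4 and 16.0 CPM, with 1 library of BioRep2 inside its range, and the overall mean was 18.5 ± 3.96 CPM (SD, n = 3). The window of SGCE on the other strand overlaps it and shares reads, with 13.6 ± 3.42 CPM. No list had a peak here.

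H19, a maternally expressed non-coding RNA, and IGF2, a paternally expressed fetal growth factor, share enhancers and a control region on chromosome 11. The H19 window (2001271 to 2001670), which lies just upstream of the RefSeq 5′ end, had 3.12 to 18.7 CPM over the libraries and a mean of 10.4 ± 2.80 CPM (SD, n = 3). BioRep3 held both the lowest and the highest library. The IGF2 window (2149404 to 2149803) had 5.38 to 10.96 CPM and a mean of 8.97 ± 0.362 CPM. Windows inside H19 or within 5 kb of it had 8.75 to 11.6 CPM, and those inside IGF2 8.57 to 12.05 CPM. Neither of these starts stood above the windows around it. The IGF2 window is that of the outermost start, and no other window was named for IGF2, so promoters further inside it were not assessed.

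MEG3, a maternally expressed non-coding RNA of chromosome 14, had 3.13 to 16.1 CPM and a mean of 7.02 ± 2.10 CPM (window 100826085 to 100826484). MEST, which encodes a hydrolase-like protein of mesoderm, had 3.12 to 16.3 CPM and a mean of 8.40 ± 1.52 CPM (chromosome 7, 130485972 to 130486371). This window is that of the outermost MEST start. The guanine-rich inner promoter printed above had its nearest window centred 1025 bp away, so its read density was not measured. The 8 other windows at MEST had 5.33 to 11.7 CPM.

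PEG3, a zinc finger gene read from the paternal copy, had 1.44 to 8.06 CPM and a mean of 4.28 ± 1.09 CPM (chromosome 19, 56840529 to 56840928). Its window is also that of ZIM2, and the window of MIMT1 on the other strand, which overlaps it, had 3.94 ± 0.453 CPM. SNRPN, a splicing protein gene at the centre of the Prader-Willi region, had the lowest level, with 0 to 2 reads per library, 13 reads in all (95% exact Poisson interval 6.92 to 22.2) and 2.53 ± 0.422 CPM (chromosome 15, 24823438 to 24823837). That window lies at the far upstream start. The window at the start of SNURF, 131349 bp along the gene, where the imprinted CpG island promoter lies, had 0 to 4 reads per library and 1.50 ± 1.86 CPM.

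**Figure D3:**
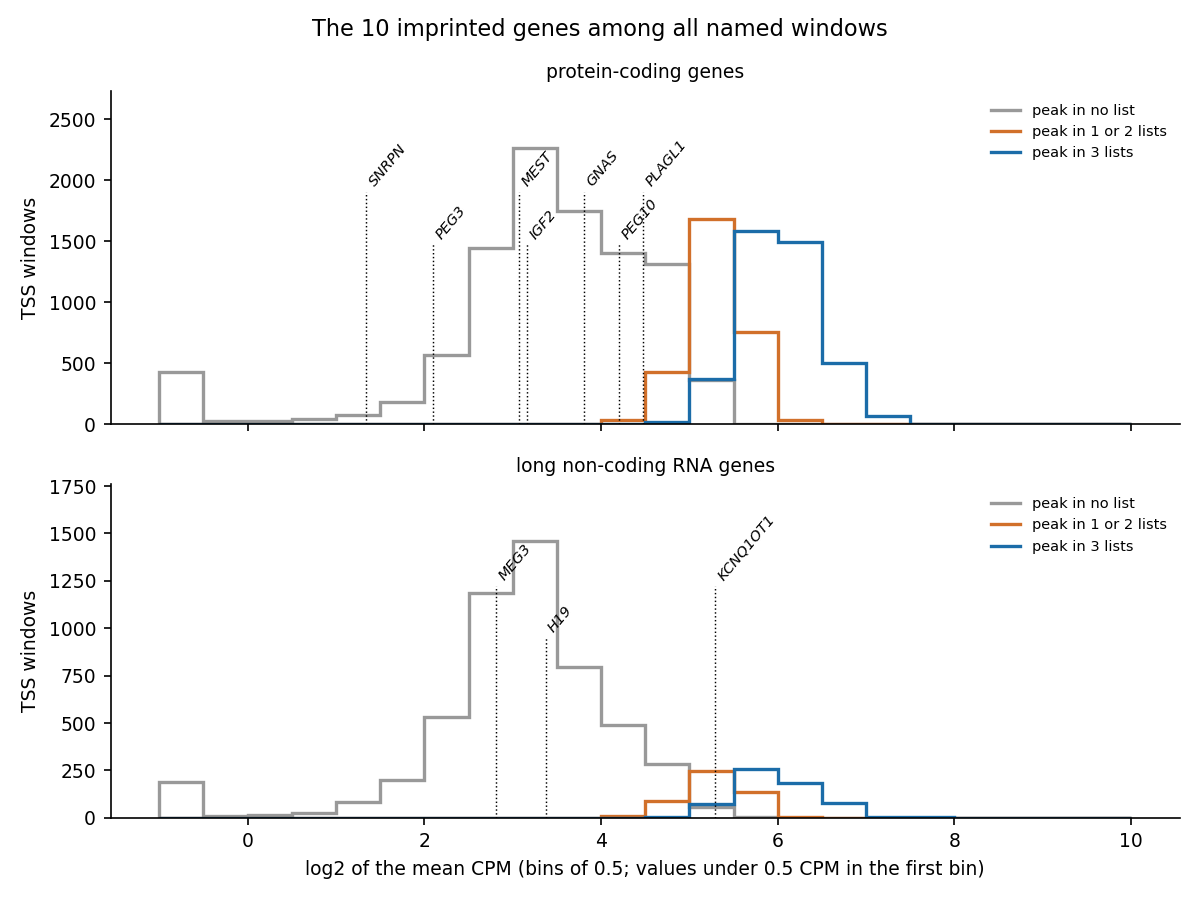
Number of TSS windows by log2 of mean CPM for protein-coding genes and long non-coding RNA genes, split by the number of lists with a peak there, with the imprinted genes as dotted lines. KCNQ1OT1 lies at the low side of windows with a peak in 3 lists, and the other 9 lie below the lowest such protein-coding window (24.9 CPM) and non-coding one (28.8 CPM).

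SNRPN and PEG3, the lowest of the 10, lay in stretches of chromosome where peak-free windows were low too. Windows without a peak within 1 Mb of a gene and outside its 5 kb flanks had a median of 2.82 CPM around SNRPN (110 windows) and 5.94 CPM around PEG3 (86 windows), against 7.27 to 9.41 CPM around the other 8. The ratio of the gene's window to this median was 0.898 for SNRPN, 0.721 for PEG3, 0.966 for MEG3, 0.927 for MEST, 0.974 for IGF2 and 1.152 for H19. It was 1.63 for GNAS, 2.42 for PEG10, 2.36 for PLAGL1 and 4.15 for KCNQ1OT1. Thus 5 of the 10 windows were below and 5 above this median, with a median ratio of 1.06. Against peak-free windows within 5 Mb, 3 were below and 7 above: SNRPN turned from 0.898 to 1.56 and IGF2 from 0.974 to 1.19. PEG3 was also narrowly below the lower quartile of its peak-free windows within 1 Mb, at 4.28 against 4.38 CPM. SNRPN, at 2.53 CPM, was above its own, at 2.22 CPM. Whether copy number, base composition or alignment sets the level of these regions was not tested. The comparison was added after the data were seen.

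**Figure D4:**
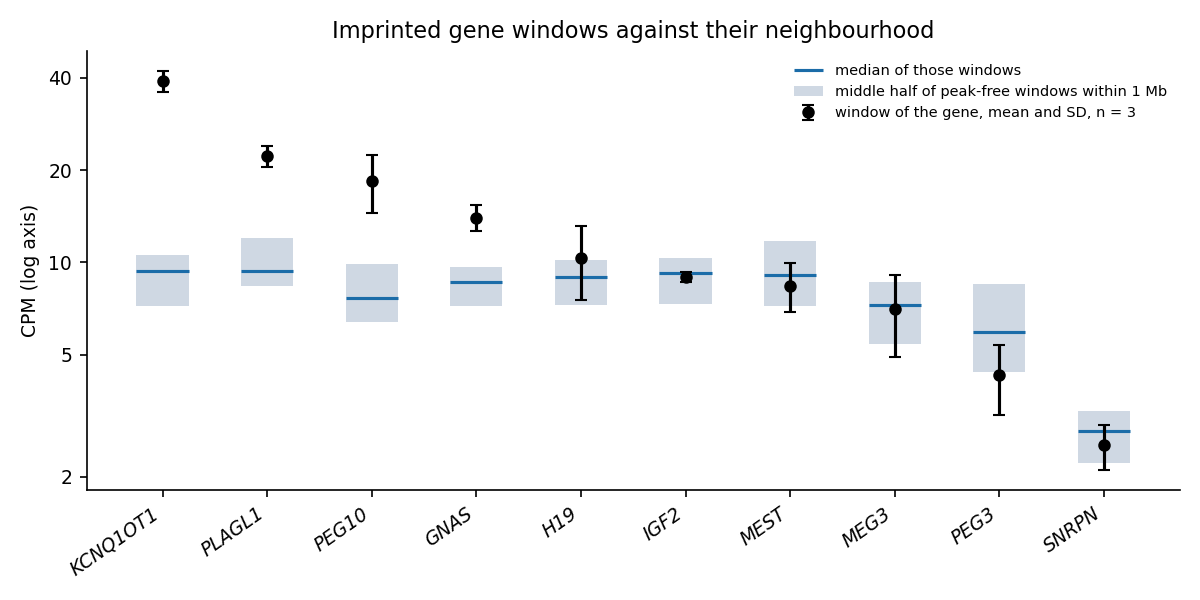
Mean CPM with SD (n = 3 biological replicates) of each imprinted gene's window (black points, log axis) over the middle range from the lower to the upper quartile of peak-free windows within 1 Mb (bars) and their median (blue lines). KCNQ1OT1, PLAGL1, PEG10, GNAS and, narrowly, H19 lie above their bars. PEG3 lies narrowly below its bar, and SNRPN sits inside a bar that is itself low.

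No imprinted gene was called different between biological replicates. edgeR's quasi-likelihood test over the 3 replicates, with Benjamini-Hochberg adjustment, called 0 of 17499 windows (0%), while 1379 had an unadjusted p under 0.05, and DESeq2 called 0 of 56196, with 807 under that p. Only KCNQ1OT1, PLAGL1 and PEG10 had enough reads to enter the test, with edgeR adjusted p of 0.971, 0.956 and 0.798. PEG10 had the largest shift, with log2 fold changes of -0.46 in BioRep2 and -0.57 in BioRep3 relative to BioRep1. The libraries within a replicate are technical, so these p-values set the replicates against technical spread only. The other 7 genes fell under the filter on low counts.

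Of 51 other imprinted genes 40 had a window, and 38 of these had one that was not already that of SNRPN or PEG3. A peak in all 3 lists lay in 2 of the 38 windows (19.9% of all protein-coding and non-coding windows), and a peak in any list in 4 (34.7%). The median was 10.9 CPM, close to the 9.66 CPM of the 10 genes above. INPP5F, a phosphatase gene whose imprinted transcript starts further inside the gene, had 123 ± 4.45 CPM (SD, n = 3) at its outer window. CDKN1C, a maternally expressed inhibitor of cyclin-dependent kinases in the KCNQ1OT1 domain, had 41.2 ± 8.89 CPM, with 34.9, 37.3 and 51.4 CPM in the 3 replicates. HYMAI had peaks in 2 lists, and GRB10, an adaptor that dampens growth factor signalling, had one in BioRep2 alone, with 33.3 ± 1.46 CPM.

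The other 34 windows had no peak. The highest among genes listed as paternally expressed were BLCAP with 43.2 ± 6.07 CPM (n = 3) and ZDBF2 with 31.0 ± 1.90 CPM. The lists go by gene name, and the parental copy used at a given window was not measured. Among genes listed as maternally expressed the highest were UBE3A, the ubiquitin ligase of Angelman syndrome, with 41.3 ± 4.80 CPM, and ZNF597 with 23.3 ± 6.85 CPM. UBE3A lies on chromosome 15 near SNRPN, with a level above it in each replicate (46.6, 37.4 and 39.7 CPM against 2.92, 2.60 and 2.08 CPM). The 22 genes listed as paternally expressed had a median of 9.70 CPM, and 1 had a peak in all 3 lists. The 16 listed as maternally expressed had 17.2 CPM and 1. The difference between these gene lists was not tested.

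**Figure D5:**
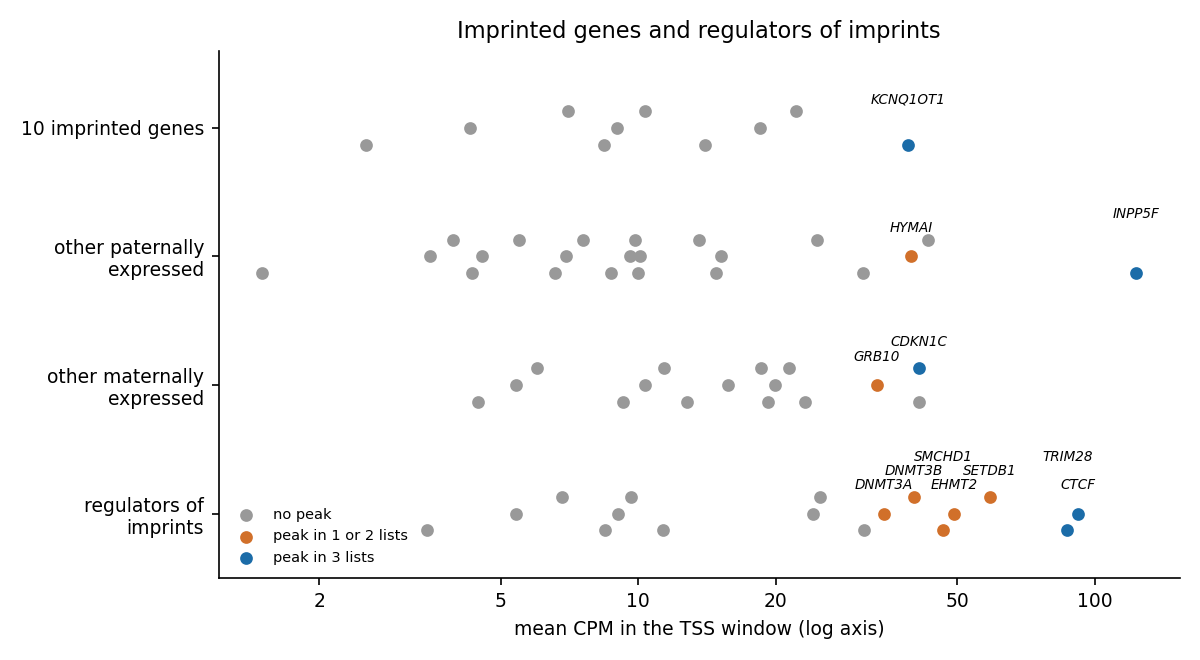
Mean CPM over 3 biological replicates (log axis), 1 point per gene, coloured by the number of peak lists with a peak in the window. Shown are the 10 imprinted genes, 22 others listed as paternally expressed, 16 others listed as maternally expressed and 17 regulators of imprints. KCNQ1OT1, INPP5F and CDKN1C are the imprinted genes with a peak in all 3 lists, and the 10 genes have a median of 9.66 CPM.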

How the data were processed

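BG4 ChIP-seq of HEK293 cells was available as 9 tables of raw read counts and 3 peak lists. The counts were deposited by the authors for windows of 400 bp around GENCODE release 28 start sites on hg38, with duplicates marked, per the file names. The deposited peak lists, 1 per biological replicate, hold positions only. Tools listed in the submitters' processing notes are BWA, MACS2, Picard, bedtools and cutadapt. For their versions, the peak thresholds and whether duplicates were counted, the sources used here give nothing. Groups and technical numbers came from the sample titles.

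CPM was scaled to the reads in windows, averaged over technical libraries and given as mean ± SD over 3 biological replicates. Names came by position from RefSeq GRCh38.p14: 41103 of 59792 genes received a window on their strand within 1 kb, the strand being taken from the sequence tables or, where these gave none, from the only end with such a window. A name is therefore that of a position, and a window can be shared by neighbouring genes. A shared peak is one that peaks of both other lists overlap by 1 bp or more. A window counts as having a peak in all 3 lists when each list has a peak in it.

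Windows were compared with edgeR 4.0.16 in R 4.3.3 (TMM, filterByExpr, robust quasi-likelihood fit, Benjamini-Hochberg at 0.05), with DESeq2 1.42.0 as an alternative; the fit was tested on simulated data. Other steps ran in Python 3.11.15 with scipy 1.17.1, pandas 2.3.3, numpy 2.4.6 and matplotlib 3.10.9. The genes and lists were chosen with earlier results of these data known. Named were the 10 genes, of each wider list up to 6 genes with a peak in all 3 lists and the 3 highest without one in all 3, windows overlapping or facing those of the 10, windows holding their peaks, and the 3 windows most like the highest gene. DNMT3B, DNMT3A, ZNF445, TET1, YY1 and KCNQ1 were named after their values were seen. Alternatives covered size factors, filters, the technical number as a block, peak and overlap rules, flanks, window distance, and each library or biological replicate left out in turn.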

Additional observations from a re-analysis of the deposited data

How the results depend on the processing

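The count of members with a peak in their window was 1 under all 8 alternatives tried, all of which used the outermost starts. The median of the member windows ran from 8.84 to 10.3 CPM. Members with a shared peak within 5 kb numbered 0 without flanks, 2 with peaks shared by at least 2 lists, and 1 to 2 when a biological replicate was left out (2 without BioRep1 and 2 without BioRep3). Other imprinted genes with a peak numbered 4 when any list sufficed, against 2. Windows that differed between replicates numbered 0 with edgeR, 25 of 56196 without a filter on low counts, none of them a member (lowest adjusted p among the 10 genes 0.925), and 0 to 1 when a library was left out (1 without BioRep1 replicate 1, 1 without BioRep3 replicate 2). With the technical number as a replicate block the count was 0 of 17499; libraries of the same number did not deviate together (0 of 9 pairs had a correlation over 0.1). Why the filter and the left-out libraries moved these counts was not tested. The ratio to windows within 5 Mb, an alternative chosen after seeing the data, had a median of 1.44 in place of 1.06, with 3 genes below 1 in place of 5. Depth limits the genes under 10 CPM, where 1 read is worth 1.18 to 2.69 CPM.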

Other observations

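Of 19 regulators of imprints 17 had a window, all of protein-coding genes, with a median of 25.0 CPM, close to the 23.7 CPM over all named protein-coding windows. A peak in all 3 lists lay in 2 of the 17 (11.8%, against 24% of protein-coding windows) and a peak in at least 2 lists in 6 (34.2% of protein-coding windows). CTCF, the insulator protein that binds the control region of H19 and IGF2, had 92.0 ± 16.0 CPM (SD, n = 3), and TRIM28, the corepressor that protects methylated imprints, had 87.2 ± 2.29 CPM, both with a peak in all 3 lists. SETDB1, a histone H3 lysine methyltransferase recruited by TRIM28, had 58.9 ± 8.88 CPM, EHMT2 49.2 ± 2.36 CPM, SMCHD1 46.6 ± 2.24 CPM and the DNA methyltransferase DNMT3B 40.2 ± 0.833 CPM, each with peaks in BioRep2 and BioRep3. DNMT3A had a peak in BioRep3 alone, with 34.5 ± 6.16 CPM. The highest without a peak were ZNF445 (31.3 ± 2.46 CPM), TET1 (25.0 ± 4.35 CPM) and YY1 (24.1 ± 3.47 CPM).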
